A study of Mus musculus with 36 samples.

Results

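The genes for enzymes that oxidize ethanol and aldehydes were examined in RNA from fetal mouse neural stem cells (NSCs) and from the extracellular vesicles (EVs) that these cells released. The 10 genes, of 40205 features counted, were taken by name and not by their measured values. They were the alcohol dehydrogenases Adh1, Adh5 and Adh7, the other ethanol oxidizers Cyp2e1 and Cat, and the aldehyde dehydrogenases Aldh2, Aldh1b1, Aldh1a1, Aldh1a3 and Aldh9a1. The comparisons asked which of them are expressed in the cells, which are found in EVs, and whether their RNA differed with ethanol dose or sex.

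Neurospheres were grown from the dorsal telencephalon of C57BL/6J mouse fetuses of gestational day 12.5, and the study's methods add the Ai14 reporter allele, which all groups would share. Each of 3 pregnancies (sets 3, 4 and 5) gave 1 female and 1 male culture, made by pooling tissue of same-sex littermates, so that the 6 cultures are named 3F, 3M, 4F, 4M, 5F and 5M. At passages 7 to 10 every culture was kept for 5 days at 0, 120 or 320 mg/dL ethanol, and each culture and dose gave 1 EV and 1 cell library. The 36 libraries thus form 12 groups of 3, split by location, sex and dose, and the 18 libraries of a location come from only 6 cultures, so that p-values measure the spread between these libraries. Cell libraries held 26.6 to 55.3 M counts (M, mega; median 37.8 M) and EV libraries 0.959 to 5.51 M (median 3.83 M), so that EV values rest on far fewer counts. Of 8 neural stem cell markers, 7 had a mean of at least 1 CPM (counts per M after TMM scaling, edgeR's library scaling) in cells, while Sox2 was listed at 0 in all 36 libraries. Red blood cell markers summed to at most 0.0787 CPM in cells, microglial markers to at most 0.193 and hepatocyte markers to at most 1.2. Because these are bulk samples, fewer cells of a type and less RNA per cell cannot be told apart.

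Ethanol is oxidized to acetaldehyde by cytosolic alcohol dehydrogenases, by cytochrome P450 2E1 in the endoplasmic reticulum and, with hydrogen peroxide, by peroxisomal catalase. Mitochondrial ALDH2 carries out most of the next step, from acetaldehyde to acetate. In liver Adh1 and Cyp2e1 dominate, whereas in brain, where class I alcohol dehydrogenase is scarce, catalase and CYP2E1 are the routes usually discussed.

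The alcohol dehydrogenase genes lie side by side. Adh7, Adh1, Adh6a, Adh6b, Adh4 and Adh5 occupy 238 kb of chromosome 3 of GRCm39, from 137923521 to 138161260, all on the plus strand. Of these 6 genes Adh5, at the far end, was the one with more than a trace of RNA in the cultures, and the sequence just before its start site held more CG pairs than those of Adh1 and Adh7. The 250 bases before the start of the annotated canonical transcript (GENCODE, GRCm39, plus strand) are shown for Adh5, for its scarce relatives Adh1 and Adh7 and for Cyp2e1, with each CG pair (a CpG, the site of DNA methylation) and each TATAAA, on either strand (TTTATA when read on the plus strand), in capitals.
Adh5, chr3:138148601-138148850: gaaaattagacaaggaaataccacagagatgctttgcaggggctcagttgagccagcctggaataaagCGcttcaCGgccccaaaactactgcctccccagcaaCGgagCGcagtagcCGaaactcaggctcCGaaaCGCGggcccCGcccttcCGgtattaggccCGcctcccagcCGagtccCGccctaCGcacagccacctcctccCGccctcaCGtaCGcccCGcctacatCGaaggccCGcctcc
Adh1, chr3:137983001-137983250: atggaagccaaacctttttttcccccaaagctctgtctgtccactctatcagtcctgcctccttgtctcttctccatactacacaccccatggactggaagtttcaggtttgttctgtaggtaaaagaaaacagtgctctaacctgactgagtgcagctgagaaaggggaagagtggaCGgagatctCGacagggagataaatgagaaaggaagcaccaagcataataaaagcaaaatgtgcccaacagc
Adh7, chr3:137923271-137923520: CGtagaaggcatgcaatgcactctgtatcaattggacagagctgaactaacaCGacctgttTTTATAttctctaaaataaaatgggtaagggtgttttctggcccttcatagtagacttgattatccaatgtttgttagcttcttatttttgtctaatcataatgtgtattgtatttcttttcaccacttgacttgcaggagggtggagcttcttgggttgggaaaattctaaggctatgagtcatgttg
Cyp2e1, chr7:140343402-140343651: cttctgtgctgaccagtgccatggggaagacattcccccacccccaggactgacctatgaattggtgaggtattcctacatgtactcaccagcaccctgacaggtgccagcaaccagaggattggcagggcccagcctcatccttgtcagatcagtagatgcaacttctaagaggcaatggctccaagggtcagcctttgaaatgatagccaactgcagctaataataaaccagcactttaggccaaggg
The Adh5 sequence held 20 CpGs, more than 84.1% of 21751 promoters of protein-coding genes read in the same way, of which the median was 8. Adh1 and Adh7 held 2 each and Cyp2e1 held 0. The other members held from 2 to 11, with 11 in Aldh2, 9 in Cat, 7 in Aldh1a3, 5 in Aldh9a1 and Aldh1b1 and 2 in Aldh1a1. Across all genes, 87.4% of 5269 with 16 or more CpGs in this window were detected in cells, against 20.3% of 4897 with 3 or fewer. TATAAA occurred on either strand in 11.9% of promoters, and among the members in Adh7, Aldh1a1 and Aldh1b1. The 2 matches in Aldh1b1 overlap in a single stretch, TTTATAAA, read on both strands. The core of the antioxidant response motif, TGACNNNGC, occurred on either strand in 9.68% of promoters and among the members in Aldh9a1 alone. These matches describe the letters in the window, and methylation was not measured.

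In cells 6 members were detected, and in EVs the same ones, where detected means at least 1 CPM in at least 9 of 18 libraries. These were Adh5, Cat, Aldh2, Aldh1a1, Aldh1a3 and Aldh9a1. The share, 60% of 10, compares with 32% of all 40205 features in cells and 38.5% in EVs. Levels of different genes were compared per kb of the canonical transcript. In cells the medians over 18 libraries were 33.7 CPM per kb for Adh5, 19.7 for Cat, 14 for Aldh9a1, 4.29 for Aldh1a3 and 2.80 for Aldh2. Adh5 was above Cat in 17 of 18 cell libraries, whereas Cat was above Aldh9a1 in 13, Aldh9a1 above Aldh1a3 in 14, and Aldh1a3 above Aldh2 in 14. Aldh1b1 (0.258) and Aldh1a1 (0.175) could not be ordered, each being the higher in 9 libraries, and Adh1, Cyp2e1 and Adh7 had medians of at most 0.0145. In EVs the order began with Aldh9a1 at 34.6 CPM per kb, above Adh5 (12) in 17 of 18 libraries, then Cat at 8.38, Aldh2 at 1.96 and Aldh1a3 at 1.5. Aldh2 was above Aldh1a3 in 12 of 18 EV libraries, the reverse of their order in cells.

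**Figure D1:**
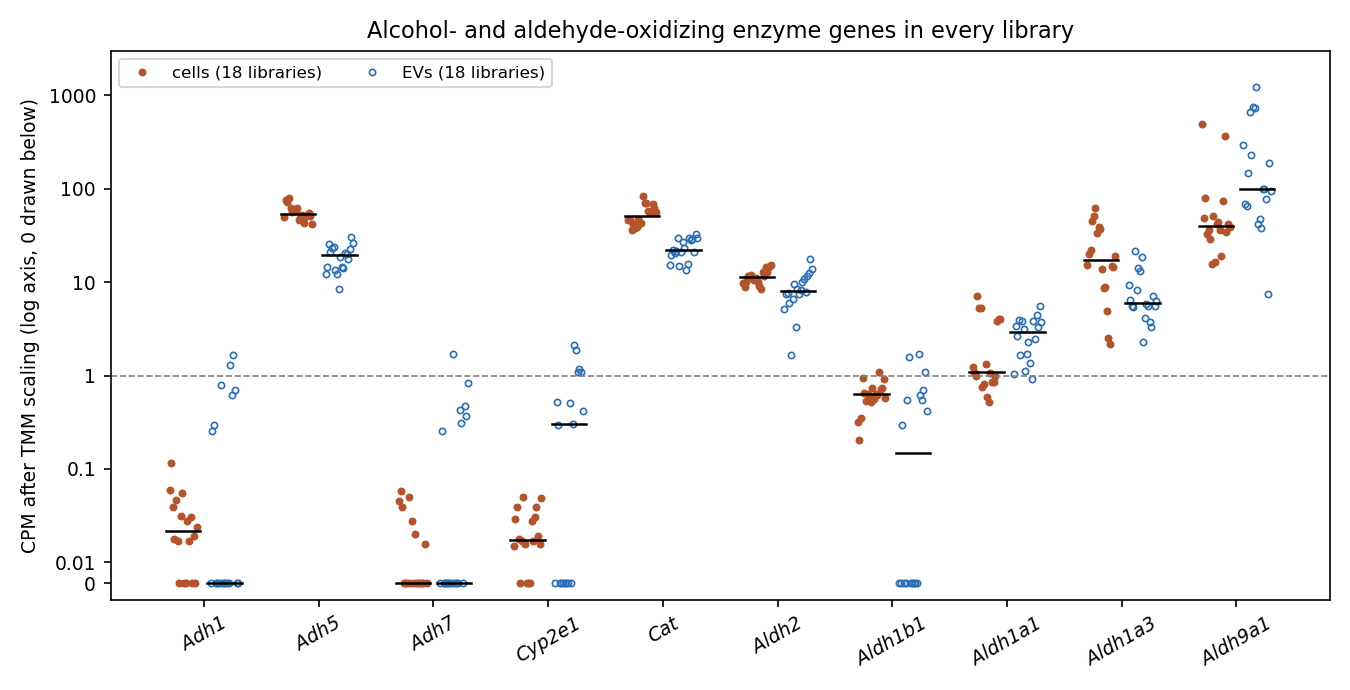
CPM after TMM scaling (y axis, logarithmic, with 0 drawn at the bottom) of the 10 genes in 18 cell libraries (filled) and 18 EV libraries (open), 1 point per library and a black bar at the median. Adh5 and Cat lie at 36.6 CPM or more in every cell library and Adh1, Adh7 and Cyp2e1 at 0.116 or less, while Aldh9a1 spans 7.52 to 1232 CPM in EVs, and the dashed line marks 1 CPM.

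The genes that are most specific to ethanol oxidation in liver were at the limit of detection. Adh1, the class I enzyme (chr3:137966752-137996462), had 0 to 4 counts per cell library and 24 in all, Cyp2e1 (chr7:140343652-140355167) had 0 to 2 and 17 in all, and Adh7, the class IV enzyme of epithelia that also takes retinol (chr3:137923521-137939938), had 0 to 3 and 11 in all. The depth of a cell library allows 3 counts to be seen from 0.0543 to 0.113 per M of the whole library upwards, before TMM scaling. Of 18 cell libraries 5 had no count of Adh1, 4 none of Cyp2e1 and 11 none of Adh7. In EVs, Adh1 was at 0 in 11 of 18 libraries with at most 3 counts, Adh7 at 0 in 11 with at most 2, and Cyp2e1 at 0 in 8 with at most 6. All 3 were too low to be tested between EVs and cells after the filter on low counts.

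Pooled over libraries, the 3 genes nevertheless took a larger share of the EV counts than of the cell counts. Cyp2e1 had 28 of 58.8 M counts in EVs, or 0.476 per M (95% exact Poisson interval 0.317 to 0.689, which covers counting error only), and 17 of 674 M in cells, or 0.0252 per M (0.0147 to 0.0404). The ratio was 18.9 for Cyp2e1, 9.38 for Adh7 and 6.69 for Adh1. Nearly all features this scarce lay on the same side: of 6403 with 5 to 50 counts pooled over cells, 88.3% had the larger share in EVs, with a median ratio of 4.25 and quartiles of 2.11 and 6.88. Of the 28 EV counts of Cyp2e1, 13 came from culture 5F and 9 from 5M. Hepatocyte markers also moved with location, from a median sum of 0.269 CPM in cells to 1.65 in EVs, as did those of meninges and fibroblasts, from 0.782 to 3.64, and their part in the 3 genes' values was not tested. Exons of Adh1 and Adh7 overlap those of a noncoding gene on the opposite strand by 113 and 108 bases, and whether strand was used in counting is not given in the sources used here, so that these few counts cannot be assigned with certainty.

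Between EVs and cells, 7 members were tested and 5 were called (adjusted p under 0.05), 4 lower and 1 higher in EVs. In the same fit of edgeR's quasi-likelihood test 80.5% of 15281 genes were called, 42.2% lower and 38.4% higher, so that a call by itself does not set a member apart. The median log2 fold change was -0.62 over the 7 members and -0.08 over all genes tested. With scaling to library totals in place of TMM the median of all genes moved to -0.88 and the share of higher calls from 47.6% to 27.0%, and all 5 members called were then lower, Aldh1b1 in place of Aldh9a1. Adh5 and Cat were lower in EVs in every culture, and Aldh9a1, called higher, depended on a few libraries.

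Adh5, the class III enzyme that mainly oxidizes the formaldehyde adduct of glutathione and acts on ethanol only at high concentration (chr3:138148828-138161260), was the most abundant alcohol dehydrogenase. Its level was 41.9 to 78.7 CPM in cells (median 54.1, n = 18) and 8.49 to 30.1 CPM in EVs (median 19.3, n = 18). The ranges did not overlap. The log2 fold change was -1.56 ± 0.12 (SE; 2.95-fold lower in EVs; edgeR adjusted p = 3.3e-14), and the difference within a culture ran from -2.43 in 4F to -0.91 in 5M (exact sign-change test over 6 cultures, two-sided p = 0.03125, the smallest that 6 cultures can give). Exons of Adh5 overlap those of an antisense gene that is not among the counted features by 434 bases.

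Cat, catalase of the peroxisome (chr2:103284194-103316185, minus strand), ranged from 36.6 to 83.1 CPM in cells (median 51.5, n = 18) and from 13.4 to 32.7 CPM in EVs (median 21.9, n = 18). Here too no EV library reached the lowest cell library. The log2 fold change was -1.21 ± 0.13 (SE; 2.31-fold lower in EVs; edgeR adjusted p = 8.19e-11), with all 6 cultures lower, from -2.12 in 4M to -0.75 in 3M (exact two-sided p = 0.03125). Catalase is abundant in erythrocytes. Their 4 globin markers summed to at most 0.0787 CPM in cells and 1.7 CPM in EVs, and the part of blood cells in the level of Cat was not tested.

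Aldh2, the mitochondrial acetaldehyde dehydrogenase (chr5:121704090-121732089, minus strand), showed the smallest difference of the called members. It ranged from 8.42 to 15.1 CPM in cells (median 11.4, n = 18) and from 1.66 to 17.6 CPM in EVs (median 7.99, n = 18). The ranges overlapped, and in EVs the lowest value rested on 1 count. The log2 fold change was -0.35 ± 0.14 (SE; edgeR adjusted p = 0.025), 5 of 6 cultures were lower and 5M was level at 0.03 (exact two-sided p = 0.0625). The call was lost without set 3 (-0.18, edgeR adjusted p = 0.30), without set 4 (-0.33, 0.11) and without the cell libraries 3F at 0 and 5F at 320 mg/dL (-0.12, 0.46). The difference was larger with scaling to library totals (-1.22, edgeR adjusted p = 1.21e-09) and with counts summed over doses (-0.73, 0.00407). It was also called with each EV library blocked with its matching cell library (-0.40, edgeR adjusted p = 0.00738). That block still takes the doses of a culture as independent. Exons of Aldh2 overlap by 332 bases those of a gene on the opposite strand that is not among the counted features.

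Aldh1b1, a mitochondrial relative of Aldh2 encoded by only 2 exons (chr4:45798886-45804604), had 7 to 58 counts per cell library, or 0.202 to 1.10 CPM (median 0.627), and 0 to 4 counts in EVs. It was at 0 in 9 of 18 EV libraries, and the log2 fold change of -0.62 ± 0.40 (SE; edgeR adjusted p = 0.15) was not past the threshold. With scaling to library totals it was (-1.46, edgeR adjusted p = 0.00051).

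Of the retinaldehyde dehydrogenases, which make retinoic acid, Aldh1a3 was called lower in EVs and Aldh1a1 was not called, and the difference between the genes was not tested. Aldh1a3 (chr7:66040638-66077850, minus strand) ranged from 2.18 to 62.1 CPM in cells (median 17.3, n = 18) and from 2.31 to 21.6 CPM in EVs (median 6.03, n = 18). The log2 fold change was -1.70 ± 0.38 (SE; 3.26-fold lower in EVs; edgeR adjusted p = 0.000122). Within cultures, 5 were lower in EVs, by 1.26 to 2.39, and 5F, which had the lowest cell level, was higher by 0.45 (exact two-sided p = 0.0625). Aldh1a1 (chr19:20469539-20622825) ranged from 0.527 to 7.13 CPM in cells (median 1.08, n = 18) and from 0.911 to 5.51 CPM in EVs (median 2.91, n = 18), where that came to 1 to 15 counts a library. Its log2 fold change of 0.55 ± 0.33 (SE) was not past the threshold (edgeR adjusted p = 0.12). It was past the threshold with each EV library blocked with its matching cell library (0.71, edgeR adjusted p = 0.0163), where doses of a culture still count as independent. The fold change turned negative with scaling to library totals (-0.30, 0.41) and with no filter on low counts (-0.06, 0.86). Aldh1a1 has a close copy, Aldh1a7, with 2 to 40 counts in cells, and reads common to both could be split or lost. Its exons also overlap those of a noncoding gene on the opposite strand by 455 bases, and that gene had 0 counts.

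Aldh9a1, which oxidizes trimethylaminobutyraldehyde in carnitine synthesis (chr1:167177536-167196101), was the member called higher in EVs. It ranged from 15.7 to 488 CPM in cells (median 40.1, n = 18) and from 7.52 to 1232 CPM in EVs (median 99.0, n = 18). The ranges overlapped almost fully, and the log2 fold change was 1.79 ± 0.51 (SE; edgeR adjusted p = 0.00182). In the 6 EV libraries under 2 M counts, namely all 3 of 4F, 3M at 120 and 320 and 3F at 0 mg/dL, it was 230 to 1232 CPM, against 7.52 to 187 CPM in the other 12. As counts per M of the whole library, with no TMM scaling, it was 254 to 691 in these 6 and 5.85 to 147 in the other 12. Within cultures the difference was 5.21 in 4F and 3.12 in 3M, from 0.05 to 0.42 in 4M, 5F and 5M and -0.18 in 3F (exact two-sided p = 0.09375). The fold depended on which libraries were kept, in both directions. Without the 6 EV libraries it was 0.23 ± 0.49 (SE; edgeR adjusted p = 0.67), and without 2 cell libraries that stood apart, 3F at 0 and 5F at 320 mg/dL, it was 2.80 ± 0.49 (SE; 4.87e-06). It was 1.00 without set 4 (edgeR adjusted p = 0.19) and 2.43 without set 5 (0.00121), and with scaling to library totals it was 0.91 (0.0798). Aldh1a3 also had no overlap between these 6 EV libraries (8.19 to 21.6 CPM) and the other 12 (2.31 to 7.05 CPM), also as counts per M of the whole library (7.11 to 13.6 against 2.24 to 5.48), and its difference from cells was larger without them, at -2.34. Most of the 6 came from 4F and 3M, the cultures with the highest Aldh1a3 in cells. Depth and culture thus largely coincide, and their parts were not tested.

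**Figure D2:**
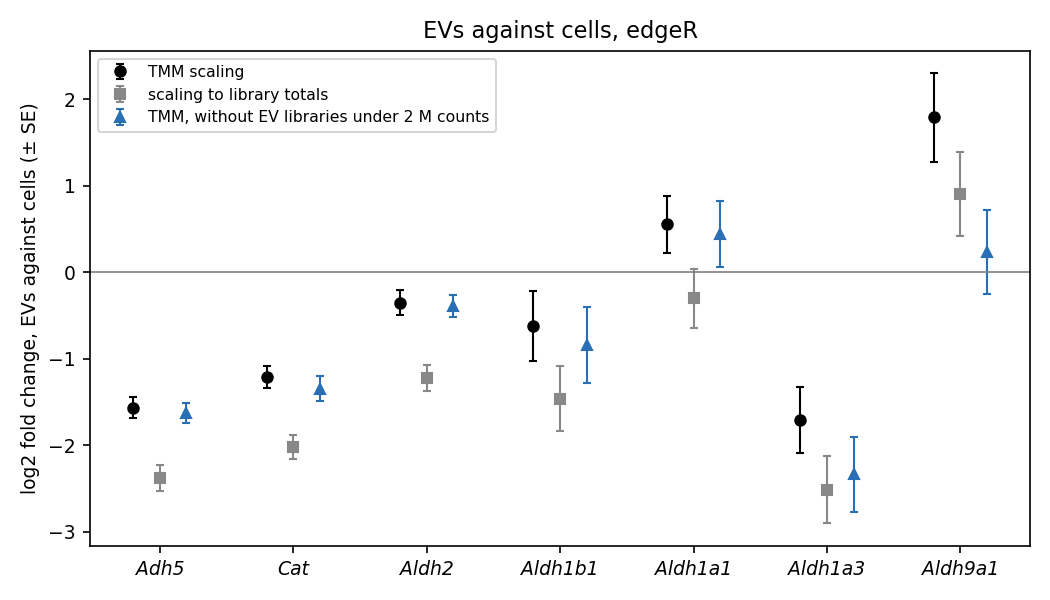
Log2 fold change of EVs against cells (y axis, ± SE) for the 7 members tested, under TMM scaling (circles), scaling to library totals (squares) and TMM scaling without the 6 EV libraries under 2 M counts (triangles). Adh5, Cat and Aldh1a3 are at -1.21 or below in all 3, Aldh1a1 lies on either side of 0, and Aldh9a1 falls from 1.79 to 0.23 without the small libraries.

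In cells, too, Aldh9a1 stood apart in a few libraries. The libraries 3F at 0 mg/dL and 5F at 320 mg/dL had 488 and 364 CPM (32500 and 18846 counts), against 15.7 to 79.8 CPM in the other 16. They belong to different pregnancies and doses, and the other doses of the same cultures were at 48.4 and 79.8 CPM in 3F and 18.9 and 74.7 CPM in 5F. The genes on either side of it on chromosome 1 did not share this: Tmco1 was at 32.9 and 45.2 CPM in the 2 libraries and 27.3 to 57.7 in the others, and Mgst3 at 8.80 and 8.93 against 4.45 to 14.9. Lhfpl1, the gene whose log2 CPM was most like that of Aldh9a1, was at 9.56 and 9.74 CPM in the 2 libraries and at most 0.849 in the others. In all, 3 features (Aldh9a1, Lhfpl1 and Gm28626, named here after their values were seen) were at least 4 times higher in both than in any other cell library, at 1 CPM or more. The noncoding LOC118568379 reached 206 and 211 CPM there and 145 in 4F at 120 mg/dL, where Aldh9a1 was 50.8 CPM, with a median of 0.280 in the 16 others. What the 2 libraries share was not tested. Exons of Aldh9a1 overlap those of an antisense gene that is not among the counted features by 256 bases.

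The members differed sharply in how much of their spread lay between cultures. Over the 18 cell libraries, culture accounted for 95.8% of the spread of log2 CPM of Aldh1a3 and 95.6% of that of Aldh1a1, and dose for 0.195% and 0.979%. For Cat culture took 90.8%, for Aldh2 86.7%, for Aldh1b1 74.9% and for Adh5 58.0%, where the median of 17792 genes was 73.7%. The SD of log2 CPM in cells was 1.39 for Aldh1a3 and 1.21 for Aldh1a1, larger than that of 98.4% and 97.2% of these genes. Adh5 and Aldh2 were among the steadier genes, with SDs of 0.26 and 0.25, larger than that of 21.1% and 19.0% of genes. Aldh9a1 had an SD of 1.31 but only 40.7% of its spread between cultures, and without the 2 libraries that stood apart an SD of 0.67 and 37.8%.

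Aldh1a3 in cells was 44.9, 50.7 and 62.1 CPM in the 3 libraries of 3M and 33.4, 37.2 and 38.8 in 4F. It was 15.4, 20.0 and 22.3 in 3F, 14.6, 15 and 19.2 in 5M and 8.73, 8.84 and 13.8 in 4M. The lowest culture was 5F with 2.18, 2.54 and 4.86 CPM, so that each of 3M, 4F and 5F stood clear of all other cultures. The 2 highest cultures were of different sex. In EVs the means were highest in 4F, at 15.4 ± 2.88 CPM, and 3M, at 11.7 ± 8.63, and lowest in 5F, at 4.21 ± 1.22, and 4M, at 4.06 ± 1.73 (SD, n = 3 each).

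Aldh1a1 was high in 2 cultures, both male. The libraries of 3M had 5.23, 5.34 and 7.13 CPM and those of 5M 3.88, 3.99 and 4.07, whereas the 12 libraries of 3F, 4F, 4M and 5F had 0.527 to 1.32. The male culture of set 4 was thus the lowest of all, with a mean of 0.728 ± 0.298 CPM (SD, n = 3) against 0.963 ± 0.307 in 4F. Astrocyte markers (Gfap, Aqp4, S100b and Aldoc) moved with it: their summed level was 301 to 410 CPM in 3M, 300 to 365 in 5M and 46.8 to 173 in the other 4 cultures. Aqp4 was listed at 0 in every library, so the sum rests on Gfap, S100b and Aldoc. Their part in the level of Aldh1a1 was not tested, and these were not the only markers that differed between cultures. Another marker list, with levels not reported here, set 3M and 5M apart from the other cultures in the opposite direction. In EVs the cultures were not set apart in this way by Aldh1a1, with 1.66 to 3.93 CPM in 3M, 3.29 to 5.51 in 5M and 0.911 to 4.40 in the rest.

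**Figure D3:**
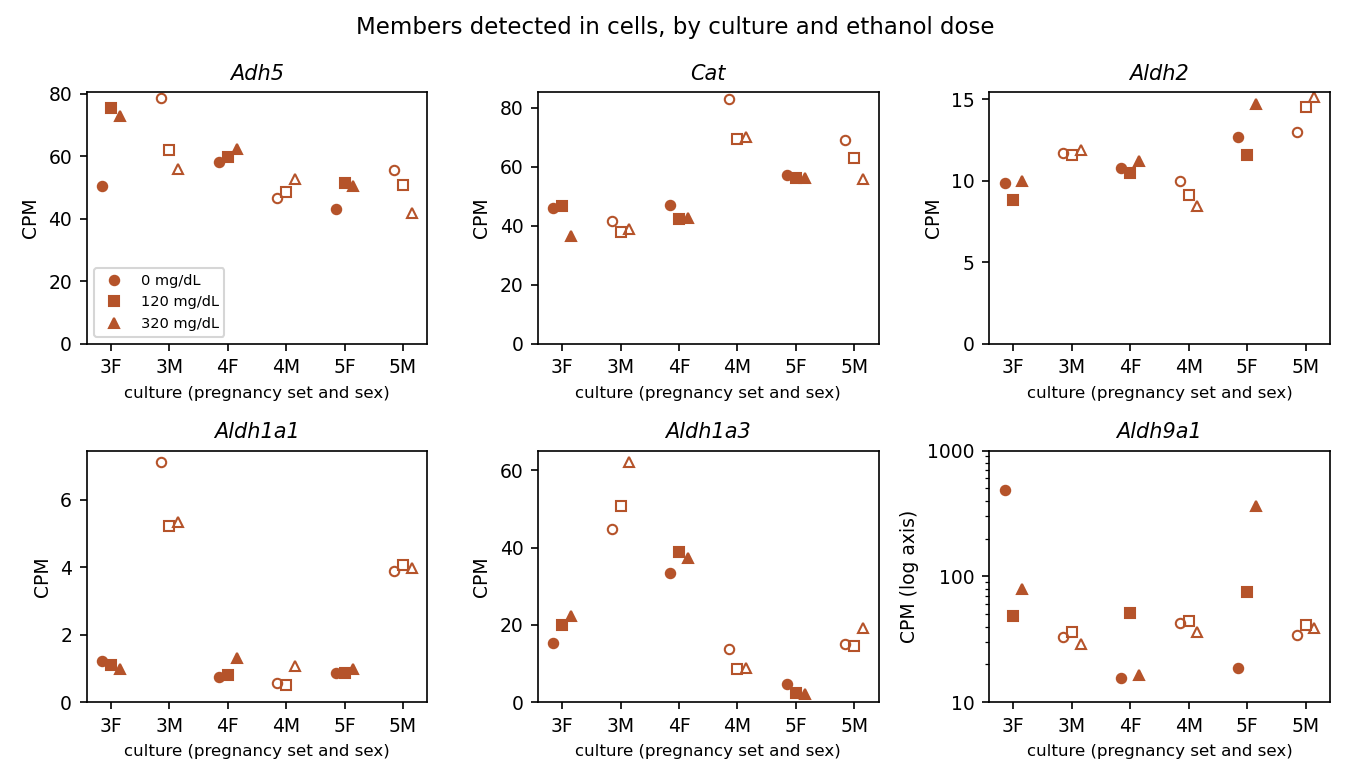
CPM after TMM scaling (y axis, linear from 0, logarithmic for Aldh9a1) in the cell libraries of the 6 cultures (x axis; female cultures filled, male open), with ethanol dose by symbol, for the 6 members detected in cells. Aldh1a1 is above 3 CPM in the male cultures 3M and 5M only, Aldh1a3 is highest in 3M and lowest in 5F, and Aldh9a1 stands apart in 3F at 0 and 5F at 320 mg/dL.

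Between female and male cells, Aldh1a1 was the 1 member called of 7 tested, where 5.83% of 17052 genes were called and 3.20% were higher and 2.63% lower in females (994 genes, and 2953 with the pregnancy as a block, which left Aldh1a1 at -1.51 and an edgeR adjusted p of 0.0135). Its log2 fold change was -1.88 ± 0.44 (SE; lower in females; edgeR adjusted p = 0.019). The test takes the 3 libraries of a culture as independent, and with counts summed over doses, leaving 3 cultures a sex, the same difference (-1.91) had an edgeR adjusted p of 0.70. The call was also lost without set 3 (-1.38, 0.12) or set 5 (-1.72, 0.22) and held without set 4 (-2.34, 0.000213). Without the 2 cell libraries in which Aldh9a1 stood apart the fold was as large (-1.93 ± 0.52, SE) with an edgeR adjusted p of 0.0539. Aldh9a1 was higher in female cells by 1.61 ± 0.63 (SE; edgeR adjusted p = 0.14; DESeq2 adjusted p = 0.0477), and by 0.01 without the 2 libraries that stood apart. Cat was lower in female cells by a log2 fold change of -0.33 ± 0.15 (SE; edgeR adjusted p = 0.21). In EVs edgeR called 0 of 5 members tested and none had an unadjusted p under 0.05, DESeq2 called 0 of the 6 members to which it gave an adjusted p, with 1 member, Aldh9a1, under that unadjusted limit, and 11.1% of 11037 genes were called, 7.03% higher and 4.06% lower in females (1224, and 2993 with the block). Aldh1a1 was not among the 5, as it did not pass the filter on low counts there. The edgeR fit thus did not test its sex difference in EVs. Aldh9a1 came nearest, at 1.64 ± 0.83 (SE; edgeR adjusted p = 0.18), and without the EV libraries under 2 M counts it was 0.10. Whether the sex difference of a member differed between cells and EVs was not tested.

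Both doses were compared with the same controls, so these comparisons are not independent of each other. With ethanol, edgeR called none of the members it tested in any of the 8 comparisons. DESeq2 called none either, but in EVs it gave an adjusted p to only 2 members, Cat and Aldh9a1, at 120 and at 320 against 0 mg/dL, and to 7 in cells at 320 against 0 mg/dL, so that the others could not be called there. In cells 7 members were tested at each dose. At 120 against 0 mg/dL, edgeR called 0 of 17792 genes (0%) and no member had an unadjusted p under 0.05. At 320 against 0 mg/dL it called 7 genes (0.0393%), and 1 member, Cat, had an unadjusted p under 0.05, while at 320 against 120 mg/dL it called 0 genes (0%) and again no member was under that limit. In EVs, with 6 members tested, 1 of 11880 genes was called at 120 mg/dL (0.00842%), 10 at 320 mg/dL (0.0842%) and 0 between the doses (0%), with no member under an unadjusted p of 0.05 in any of them. DESeq2 had 1 member under that limit in each of the cell comparisons with control, Cat both times, and 0 elsewhere.

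Cat was the member with the most regular difference in cells. Its levels at 0 and 320 mg/dL were 46.2 and 36.6 CPM in 3F, 41.8 and 39.0 in 3M, 47.0 and 42.8 in 4F, 83.1 and 70.2 in 4M, 57.3 and 56.1 in 5F and 69.3 and 56.0 in 5M. All 6 cultures were thus lower at 320 mg/dL, by 0.03 to 0.34 on the log2 scale, although the groups overlapped because cultures differed more than doses did. The log2 fold change was -0.19 ± 0.06 (SE), with an unadjusted p of 0.00925 and an edgeR adjusted p of 0.40, so that it was not called. The exact sign-change test over 6 cultures, 1 of 70 made for the 10 members, gave its smallest possible two-sided p of 0.03125. At 120 mg/dL the log2 fold change was -0.12 ± 0.06 (SE; edgeR adjusted p = 0.9999), 5 of 6 cultures were lower and 3F was level at 0.01. In EVs Cat was 15 to 29.7 CPM without ethanol (median 20.6, n = 6) and 15.8 to 29.7 CPM at 320 mg/dL (median 28.2, n = 6), with 4 cultures higher and 2 lower and a log2 fold change of 0.23 ± 0.17 (SE; edgeR adjusted p = 0.68).

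The other members varied around 0. Adh5 in cells was 43.0 to 78.7 CPM at 0 mg/dL (median 53.0), 48.4 to 75.4 at 120 (median 55.5) and 41.9 to 73.0 at 320 (median 54.3, n = 6 each), and the log2 fold changes were 0.06 ± 0.11 and 0.02 ± 0.11 (SE). The cultures of set 3 moved apart, with 3F higher by 0.53 and 3M lower by 0.49 on the log2 scale at 320 mg/dL. Aldh2 in cells was 9.85 to 13.0 CPM at 0 mg/dL (median 11.3), 8.84 to 14.5 at 120 (median 11) and 8.42 to 15.1 at 320 (median 11.6), with log2 fold changes of -0.06 ± 0.07 and 0.05 ± 0.07 (SE). For these 2 genes and Cat the standard errors in cells were at most 0.11. They were 0.17 to 0.22 in EVs, where Adh5 moved by 0.01 and 0.09, Aldh2 by -0.05 and 0.18 and Cat by 0.07 and 0.23 at 120 and 320 mg/dL. Aldh1a1 moved in cells by -0.13 ± 0.16 and 0.16 ± 0.17, Aldh1a3 by -0.16 ± 0.18 and -0.02 ± 0.18 and Aldh1b1 by -0.04 ± 0.19 and -0.26 ± 0.20 (SE). Aldh9a1 moved by -0.06 ± 0.71 and 0.05 ± 0.74, and without the libraries 3F at 0 and 5F at 320 mg/dL by 0.72 ± 0.31 and 0.27 ± 0.33 (SE; edgeR adjusted p = 0.9998 and 0.88). Adh1, Adh7 and Cyp2e1 stayed at 0 to 4 counts in every cell library at every dose, and no cell library reached 3 counts of Cyp2e1, the least that was taken as seen at this depth.

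**Figure D4:**
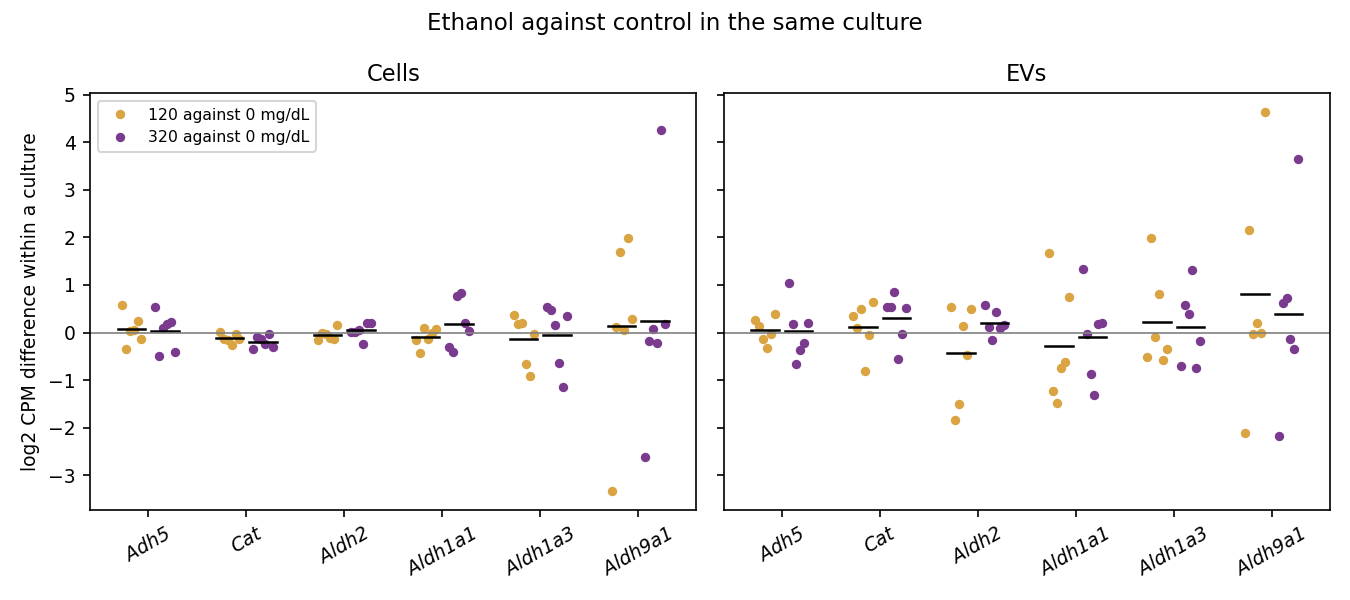
Difference in log2 CPM between ethanol and control within a culture (y axis) for the 6 members detected, in cells (left) and EVs (right), 1 point per culture at 120 (light) and 320 mg/dL (dark), with a black bar at the mean. Cat lies below 0 in cells in all 6 cultures at 320 mg/dL, by 0.03 to 0.34, while in EVs every member has cultures on both sides of 0.

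The ratio of EV to cell level was compared between doses blocking on the EV library and the cell library that came from 1 culture and dose. In edgeR 0 of 7 members were called and none had an unadjusted p under 0.05 at 120 mg/dL (0.00534% of 18728 genes called) or at 320 mg/dL (0%), and DESeq2 likewise had 0 of 10 in both. At 320 mg/dL the ratio of Cat differed by 0.45 ± 0.33 (SE) on the log2 scale, the highest of the members, and that of Aldh1b1 by -0.50 ± 1.04, the lowest. For Adh5 it was 0.04 ± 0.36, for Aldh2 0.12 ± 0.35 and for Aldh1a3 0.02 ± 0.52 (SE).

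Around the members stand 58 genes of the same pathways, of which 57 were among the counted features. Of 44 tested between EVs and cells, 10 were higher and 23 lower in EVs, with a median log2 fold change of -0.54 against -0.08 for all genes, of which 80.5% were called. With scaling to library totals 3 were higher and 35 lower, with a median of -1.33 against -0.88. Among the partners of Adh5 and catalase, Esd, the esterase that completes the breakdown of formaldehyde after ADH5, was lower like Adh5 (51.7 ± 12.7 CPM in cells and 16.6 ± 3.23 in EVs, SD, n = 18 each; log2 fold change -1.63). Of 3 peroxisomal import genes, Pex5, the receptor that carries catalase to the peroxisome, was higher in EVs (16.3 ± 3.83 CPM in cells and 78.2 ± 21.8 in EVs; 2.24), and Pex13, a membrane docking protein, was lower (29.6 ± 3.83 and 7.24 ± 2.62 CPM; -2.03). The third, Pex14, which docks the receptor at the membrane, was not called (13.8 ± 4.13 and 13.7 ± 3.15 CPM; -0.02, edgeR adjusted p = 0.90), and with scaling to library totals it was lower (-0.83). Hao1, a source of peroxide, was also higher (0.701 ± 0.239 and 2.65 ± 2.24 CPM; 1.74). Of the carbonyl and aldehyde reductases 1 was higher and 6 were lower, led by Akr1b3 (-1.59) and Akr1b10 (-1.52). Of 10 other aldehyde dehydrogenases tested, 3 were higher and 6 lower, with Aldh16a1 the highest (1.02), a call lost with scaling to library totals (0.21, edgeR adjusted p = 0.33). Acss3, an acyl-CoA synthetase of mitochondria, had the largest increase of the 44 (0.564 ± 0.167 CPM in cells and 4.81 ± 4.14 in EVs; 2.81). Both Acss3 and Hao1 were scarce in EVs, with 2 to 24 and 0 to 13 counts a library. Pex14 aside, each of these 8 genes was past the threshold (edgeR adjusted p of 1.14e-06, for Hao1, or below) and kept its direction with scaling to library totals.

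Of the same list, none was called in any ethanol comparison in cells, in EVs or in the ratio (edgeR), as with the members. Between female and male cells 4 of 45 tested were called, where 5.83% of all genes were: 1 was higher in females, Ces1d, a carboxylesterase that can form fatty acid ethyl esters (log2 fold change 1.38, edgeR adjusted p = 0.003), and 3 were lower, Pld2 (-0.76, 0.0401), Hao1 (-0.73, 0.0272) and Pex5 (-0.49, 0.0236). In EVs 2 of 33 tested were called, where 11.1% of all genes were, both lower in females, Pex5 (-0.56, edgeR adjusted p = 0.0146) and Akr1a1, an aldehyde reductase (-0.48, 0.0324). Scaling to library totals left 0 of the 33 called in EVs and 6 of the 45 in cells. With counts summed over doses, 1 value per culture, 0 of the list were called in cells or in EVs, where edgeR called 7 of 20972 and 0 of 14847 genes. In that fit 1398 genes had an unadjusted p under 0.05 in cells and 2229 in EVs, and Pex5 was at -0.51 in cells (edgeR adjusted p = 0.75) and -0.69 in EVs (0.31). The remaining alcohol dehydrogenases of the chromosome 3 cluster, Adh4, Adh6a and Adh6b, had at most 14 counts in any cell library. After the filter on low counts, fits of single libraries tested them neither between EVs and cells nor between the sexes. With counts summed over doses 1 of them was tested between female and male cells (log2 fold change 0.76) and was not called.

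The genes whose log2 CPM was most like that of a member over the 18 cell libraries are given as a description, since these libraries come from 6 cultures and share their differences. They were Ftsj1, Wdr61 and Eif3i for Adh5 (Pearson r of 0.973, 0.966 and 0.964) and Traf6, Calcoco1 and Abcc5 for Cat (0.962, 0.955 and 0.954). For Aldh1a3 they were Cavin1, Minpp1 and Pdss1 (0.966, 0.965 and 0.960), for Aldh1a1 Trim2, Bhlhe22 and Gk (0.951, 0.942 and 0.935) and for Aldh2 Efcab14, Cdh6 and LOC330143 (0.906, 0.892 and 0.879). Aldh9a1 had weaker partners, with Lhfpl1 at 0.843, LOC118568379 at 0.775 and Gtf2ird1 at 0.767, which were 0.026, 0.322 and 0.536 without the 2 cell libraries that stood apart. Among the members themselves the largest values were between Cat and Adh5 (-0.651), Cat and Aldh1a3 (-0.596) and Adh5 and Aldh1a3 (0.538).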

How the data were processed

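RNA of 18 EV and 18 cell libraries was analysed from read counts per gene deposited by the authors. EVs had been passed through a filter, concentrated and pelleted by ultracentrifugation. Per the study's methods and the submitters' processing notes, stranded libraries depleted of ribosomal RNA were sequenced in 1 pooled run, deduplicated, trimmed with Trimmomatic, aligned to mm39 with STAR and counted with HTSeq, and the strand setting and annotation release are not given in the sources used here. The deposited tables list 40205 features per library as whole counts without unassigned reads. The filter on EV size acts on particles and not on transcripts. EV libraries were shallow, for a reason that was not tested, so EV values of scarce genes move in steps of single reads.

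Counts were tested with edgeR 4.0.16 (quasi-likelihood test, R 4.3.3) after filterByExpr (minimum count 10, minimum total 15) and TMM scaling, with Benjamini-Hochberg adjustment over all genes tested and a threshold of 0.05. EVs were compared with cells with sex and dose as covariates, doses within a location with the culture as a block, and sexes with dose as a covariate. Log2 CPM used a prior count of 1, and differences within cultures were tested by exact sign changes (two-sided). The same culture number marks tissue of 1 pregnancy in the labels. Deviations of libraries of a culture correlated between 120 and 0 mg/dL with a median r of 0.702 in cells and 0.175 in EVs, between 320 and 0 mg/dL of 0.69 and 0.319, and between the EV and cell library of 1 culture and dose of 0.0664. The model was also run on simulated data. These held no differences between cultures, so that they could not check whether libraries of a culture can be taken as independent. The alternatives were DESeq2 1.42.0, other scalings (median of ratios, positive counts, library totals), no filter, each pregnancy set left out, the block added or dropped, control libraries alone, and counts summed over doses. Positions, transcript lengths and promoter sequences were taken from GENCODE and GRCm39, with transcript models that may differ from those counted. Named beside the members are up to 4 genes per direction from pathway lists with the largest called change, and the 3 genes most like each member with a mean of at least 1 CPM in cells. Members and lists were chosen with earlier results of these data known. Intervals cover counting error only. The levels of 1 marker list are not reported here.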

Additional observations from a re-analysis of the deposited data

Results flagged for a closer look

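In 44 groups of 6 libraries (a member, location and dose), the highest or lowest library was compared with the rest by Dixon's criterion, which flags about 1 group in 20 by chance, and 5 groups were marked. Aldh9a1 accounted for 3 of them. In cells without ethanol it was 488 CPM in culture 3F, where the next library had 42.3. In cells at 320 mg/dL it was 364 CPM in 5F, where the next had 79.8. In EVs at 320 mg/dL it was 1232 CPM in 4F, where the next, 3M, had 230. As a share of all counts of the library this was 0.0469% against 0.0263%, and 4F had 0.0691% at 0 and 0.0673% at 120 mg/dL. Aldh1a3 in EVs at 320 mg/dL was 18.7 CPM in 4F, where the next, 3M, had 8.19. These rested on 11 of 1.55 M counts and 15 of 1.61 M, so that before TMM scaling 4F had the smaller share. Adh1 in cells without ethanol was 0.06 CPM in 3F, which is 4 counts, where the next had 0.0193.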

How the results depend on the processing

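Of the members, 5 were called between EVs and cells, against 8 with DESeq2, 9 with no filter on low counts, 3 in the control libraries alone and 3 to 5 with a pregnancy set left out. DESeq2 and the unfiltered fit also tested Adh1, Adh7 and Cyp2e1 and called them higher in EVs (log2 fold changes of 3.67, 4.35 and 5.08, and of 2.76, 3.08 and 4.11). Of all features tested, DESeq2 called 23256 of 30942, with 72.9% of the calls higher in EVs. The unfiltered fit called 22029 of 31069, with 57.4% higher. Median log2 fold changes over all features were 1.73 and 0.46, so such calls by themselves do not set the 3 genes apart. Adh5, Cat and Aldh1a3 were called lower in every alternative fit. Aldh2 was not called with median-of-ratios (-0.28) or positive-count scaling (-0.30) or in the controls alone (-0.44), nor Aldh9a1 in the controls alone (0.91), with library totals (0.91) or with counts summed over doses (0.59), and the cause was not tested. Between female and male cells 1 member was called, against 2 with DESeq2, 0 with counts summed over doses, 0 to 1 with a set left out (without set 3 the 1 was Cat, at -0.46, edgeR adjusted p = 0.0218) and 0 without the 2 cell libraries in which Aldh9a1 stood apart (Aldh1a1 at -1.93, edgeR adjusted p = 0.0539). Between female and male EVs 0 were called, and 0 to 1 with a set left out, the 1 being Aldh9a1 without set 3 (3.12, edgeR adjusted p = 0.0227), which was -0.73 without set 4. In the ethanol comparisons 0 of the members tested were called under every alternative run, DESeq2 testing only 2 in EVs at each dose against control.

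With the replicate block 6 members were called between EVs and cells, 1 between female and male cells and 0 between female and male EVs. Without the block 0 were called in each ethanol comparison, and the pairing changed no call beyond that of Aldh1a1 between EVs and cells.

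Over all genes, the calls between EVs and cells (12302) ranged from 10111 to 23256. In cells the 7 calls at 320 mg/dL became 0 to 94, the 0 calls at 120 mg/dL 0 to 4, the 0 calls between doses 0 to 3 and the 994 calls between the sexes 7 to 2953. In EVs the 10 calls at 320 mg/dL became 0 to 267, the 1 call at 120 mg/dL 0 to 157, the 0 calls between doses 0 to 128 and the 1224 calls between the sexes 0 to 2993. The ratio had 0 to 2 calls at either dose. The fits without the 2 cell libraries or the 6 EV libraries under 2 M counts were chosen after seeing the data and were not run for the ratio. Depth limits EVs, where 3 counts stand for 0.544 to 3.13 per M of the whole library, before TMM scaling. After that scaling a single count of Aldh2 in the EV library of 3M at 120 mg/dL came to 1.66 CPM, above the 1 CPM used for detection.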
